A study of Mus musculus with 8 samples.

Results

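A set of 10 secreted or membrane-bound chemokine genes that mainly attract lymphocytes and monocytes were followed in mouse prostate epithelium. They were taken as the rows whose Ensembl identifiers map to the symbols Cxcl9, Cxcl10, Cxcl11, Cxcl12, Cxcl13, Cxcl16, Ccl2, Ccl5, Ccl20 and Cx3cl1, which gave 10 genes of the 55335 listed in each library. Prostate epithelial cells were gated as EpCAM+ and CD24A+ with low CD49F and profiled by strand-specific mRNA sequencing. All 4 groups carried PtenPC-/-, including the controls, and each had 2 libraries, A and B. PP sham mice carried PtenPC-/- alone, were sham treated and were 3.5 months old. PPK sham mice carried PtenPC-/-; Kmt2cPC-/- and were otherwise the same. PP ADT and PPK ADT mice had the corresponding genotypes, had received androgen deprivation (ADT) and were 6.5 months old. The labels do not say how androgen was withdrawn or which cells the deletions reach, and they do not say whether A and B came from separate mice. The p-values below therefore rest on the spread between libraries alone, and that spread may be technical. Treatment and age moved together, so their effects cannot be told apart.

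Chemokines are small proteins that bind G protein-coupled receptors on leukocytes and guide their migration along concentration gradients. CXCL9, CXCL10 and CXCL11 are induced by interferons and bind CXCR3 on activated T cells and NK cells. CXCL13 binds CXCR5 and brings B cells and follicular helper T cells into lymphoid follicles; in mouse prostate cancer models it is known as a chemokine induced after castration. Epithelial cells are a known source of several of these ligands, among them CCL20, CXCL16 and CX3CL1.

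Deposited values are FPKM, fragments per kilobase of transcript scaled to library size, which can be set side by side between genes. Depth was estimated at 17600000 to 25100000 fragments per library from the size of the smallest steps between values. Kmt2c, the gene targeted in PPK mice, was at 13.3 and 13.9 FPKM in PP sham, 8.67 and 8.15 in PPK sham, 10.3 and 9.33 in PP ADT and 6.60 and 6.36 in PPK ADT. It was lower in PPK than in PP libraries without overlap under either treatment, with log2 differences of -0.63 in sham (adjusted p = 0.000795) and -0.53 in ADT mice (adjusted p = 0.00054). The 8 epithelial markers summed to between 5437 and 7065 FPKM, but the keratins behind that sum differed in PPK ADT. The luminal keratin gene Krt8 was at 1263 to 1883 FPKM in the other 6 libraries and at 294.3 and 286.2 in PPK ADT. The basal keratin gene Krt5 was at 21.0 to 96.8 FPKM in the other 6 and at 3242 and 3243 in PPK ADT. The PPK ADT libraries, in which 9 tested chemokine genes were at their highest or lowest level, thus also differed in their keratins, and the part of this in the chemokine levels was not tested. Differences between groups were tested with limma on log2(FPKM + 1) over 14000 genes that reached 1 FPKM in at least 2 libraries, with Benjamini-Hochberg adjusted two-sided p below 0.05 as the threshold. A fold on this scale understates the change of a gene near 1 FPKM. Of the 10 chemokine genes, 9 passed the filter. Ccl2 passed only through PPK ADT, Cxcl9 through PPK sham and PP ADT, and Cxcl11 through PPK sham and 1 PP ADT library, so that part of their difference follows from the filter.

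The promoters of 4 of these genes are shown because they stand for both group orders: Cxcl10, Cxcl9 and Ccl20 were lowest in PPK ADT, where Cxcl13 was highest. The windows are from RefSeq on GRCm38.p6 and run from 250 bases before to 50 bases after the gene start, written on the gene's strand. RefSeq windows were matched for 6 of the 10 genes, namely Cxcl9, Cxcl10, Cxcl12, Cxcl13, Ccl20 and Cx3cl1, and none was matched for Cxcl11, Cxcl16, Ccl2 and Ccl5. Capitals mark matches to an interferon-stimulated response element (GAAANNGAAA), the NF-kB consensus or an AP-1 site (TGANTCA), searched on both strands together with the STAT element TTCNNNGAA. The windows lie at chr5:92348840-92349139 on the minus strand for Cxcl10, chr5:92328030-92328329 on the minus strand for Cxcl9, chr1:83116516-83116815 on the plus strand for Ccl20 and chr5:95956689-95956988 on the plus strand for Cxcl13.
Cxcl10: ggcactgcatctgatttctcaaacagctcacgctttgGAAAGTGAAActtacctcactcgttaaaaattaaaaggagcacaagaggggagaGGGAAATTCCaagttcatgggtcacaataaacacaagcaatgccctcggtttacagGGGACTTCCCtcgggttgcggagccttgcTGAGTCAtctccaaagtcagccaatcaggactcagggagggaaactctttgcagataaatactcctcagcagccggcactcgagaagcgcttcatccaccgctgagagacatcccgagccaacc
Cxcl9: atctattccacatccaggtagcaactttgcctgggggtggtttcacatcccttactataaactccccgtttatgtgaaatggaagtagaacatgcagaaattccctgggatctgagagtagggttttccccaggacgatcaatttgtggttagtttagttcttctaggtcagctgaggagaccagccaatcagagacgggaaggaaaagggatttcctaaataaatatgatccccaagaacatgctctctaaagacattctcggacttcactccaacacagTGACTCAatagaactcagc
Ccl20: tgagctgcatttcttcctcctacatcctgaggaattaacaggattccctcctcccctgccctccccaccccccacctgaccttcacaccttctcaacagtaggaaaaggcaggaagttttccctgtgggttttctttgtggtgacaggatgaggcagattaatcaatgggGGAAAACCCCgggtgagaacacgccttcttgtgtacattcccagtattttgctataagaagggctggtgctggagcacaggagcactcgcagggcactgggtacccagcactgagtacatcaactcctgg
Cxcl13: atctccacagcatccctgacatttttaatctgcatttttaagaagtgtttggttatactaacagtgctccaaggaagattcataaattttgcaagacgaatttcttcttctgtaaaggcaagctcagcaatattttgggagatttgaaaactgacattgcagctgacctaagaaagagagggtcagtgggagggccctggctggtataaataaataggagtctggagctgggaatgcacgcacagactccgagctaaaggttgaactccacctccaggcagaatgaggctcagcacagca

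Cxcl10 held matches to 3 of the 4 motifs. The interferon-stimulated response element began 213 bases before its start, NF-kB matches began 159 and 103 bases before it, and the AP-1 match began 74 bases before it. Ccl20 held an NF-kB match on the minus strand, 80 bases before the start, and Cxcl9 an AP-1 match 31 bases after its start. Those letters were not found in the windows of Cxcl12, Cxcl13 and Cx3cl1. Among 32851 promoter windows of the same length, 3.44% held the interferon element, 8.3% the STAT element, 7.81% the AP-1 letters and 4.51% the NF-kB consensus. A match describes the letters of the window and says nothing of binding in these cells.

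Between the 4 groups, Cxcl13 and Ccl2 were highest in PPK ADT, and 7 other tested genes were lowest there. The share of all tested genes that were highest or lowest in PPK ADT was not computed, so these counts have no background. In PPK sham against PP sham, 7 of the 9 tested genes were higher and 0 were lower (0 also at an unadjusted p under 0.05), where 13.7% of all tested genes were higher and 14.9% lower. In PPK ADT against PP ADT, 2 were higher, Cxcl13 and Ccl2, and 6 were lower, where the background was 32.5% higher and 27.1% lower. From sham to ADT in PP mice 4 rose and 0 fell (0 also at an unadjusted p under 0.05), where 19.1% of all genes rose and 25.1% fell. The same step in PPK mice raised 2 genes, again Cxcl13 and Ccl2, and lowered the other 7, where 31.9% of all genes rose and 30.7% fell. Ccl2 passed the filter only through PPK ADT, and Cxcl9 and Cxcl11 only through PPK sham and PP ADT. The filter thus favoured their directions against PPK ADT, and part of these counts follows from it. The median log2 difference of the 9 genes was 0.72 between the sham groups and -0.88 between the ADT groups, beside -0.015 and 0.046 over all tested genes. From sham to ADT it was 0.24 in PP and -1.30 in PPK, beside -0.069 and 0 over all genes. These comparisons share libraries and are given side by side; in bulk libraries, fewer cells making a transcript and less transcript per cell cannot be told apart.

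**Figure D1:**
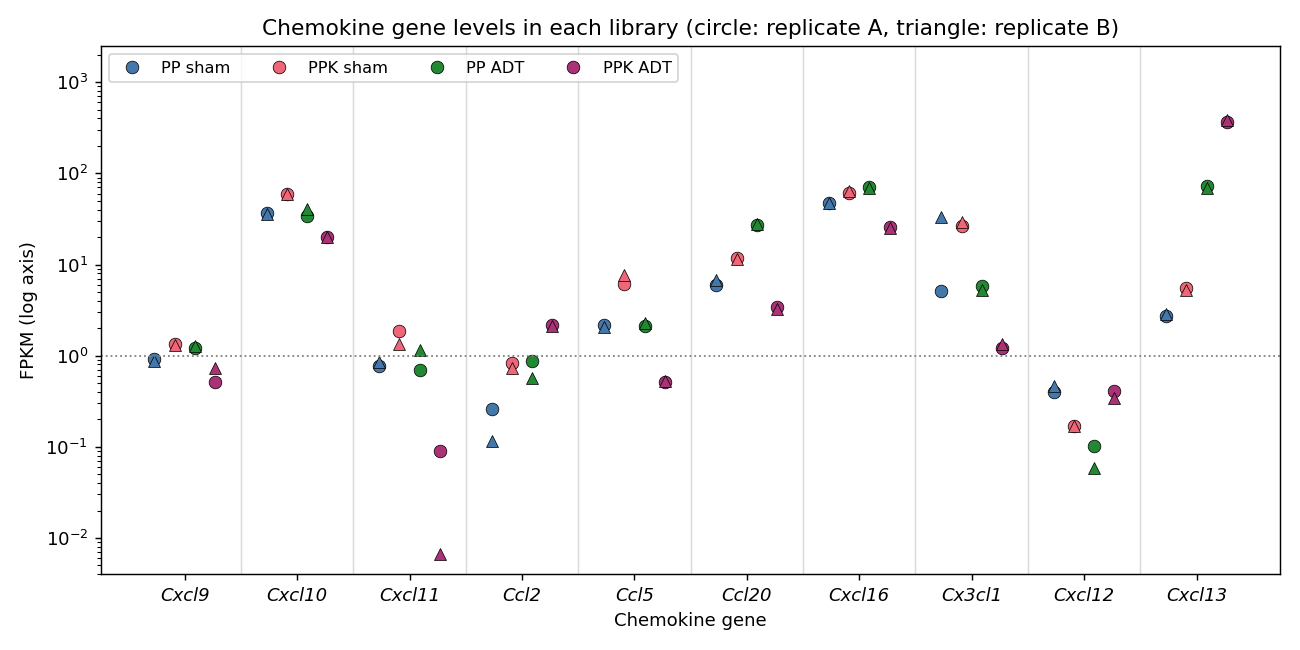
FPKM of the 10 chemokine genes in each of the 8 libraries, with 1 point for a library and the groups PP sham, PPK sham, PP ADT and PPK ADT side by side. Cxcl13 reached 368 and 381 FPKM in PPK ADT, while Cxcl10, Cxcl16, Ccl5 and Ccl20 were lowest there.

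The test of the difference between both genotype effects, that is, the PPK minus PP difference in ADT mice less the same in sham mice, passed for 7 of the 9 genes. It was below 0 for 6, Cxcl9, Cxcl10, Cxcl11, Cxcl16, Ccl5 and Ccl20, and above 0 for Cxcl13, where 22.8% of all genes were below and 30.0% above. For each of the 6, the PPK libraries lay above the PP libraries in sham mice and below them in ADT mice. That order was without overlap in both treatments for all 6. The share of all tested genes with such an order was not computed. The 6 were picked by the difference of genotype effects in these same values, which favours opposite orders. Cxcl9 and Cxcl11 passed the filter only through groups other than PPK ADT, which favours this order too. The sham difference of Cxcl9 did not pass (limma adjusted p = 0.0594). The median of the 9 genes was -1.61, beside 0.085 over all tested genes. Ccl2 and Cx3cl1 did not pass.

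**Figure D2:**
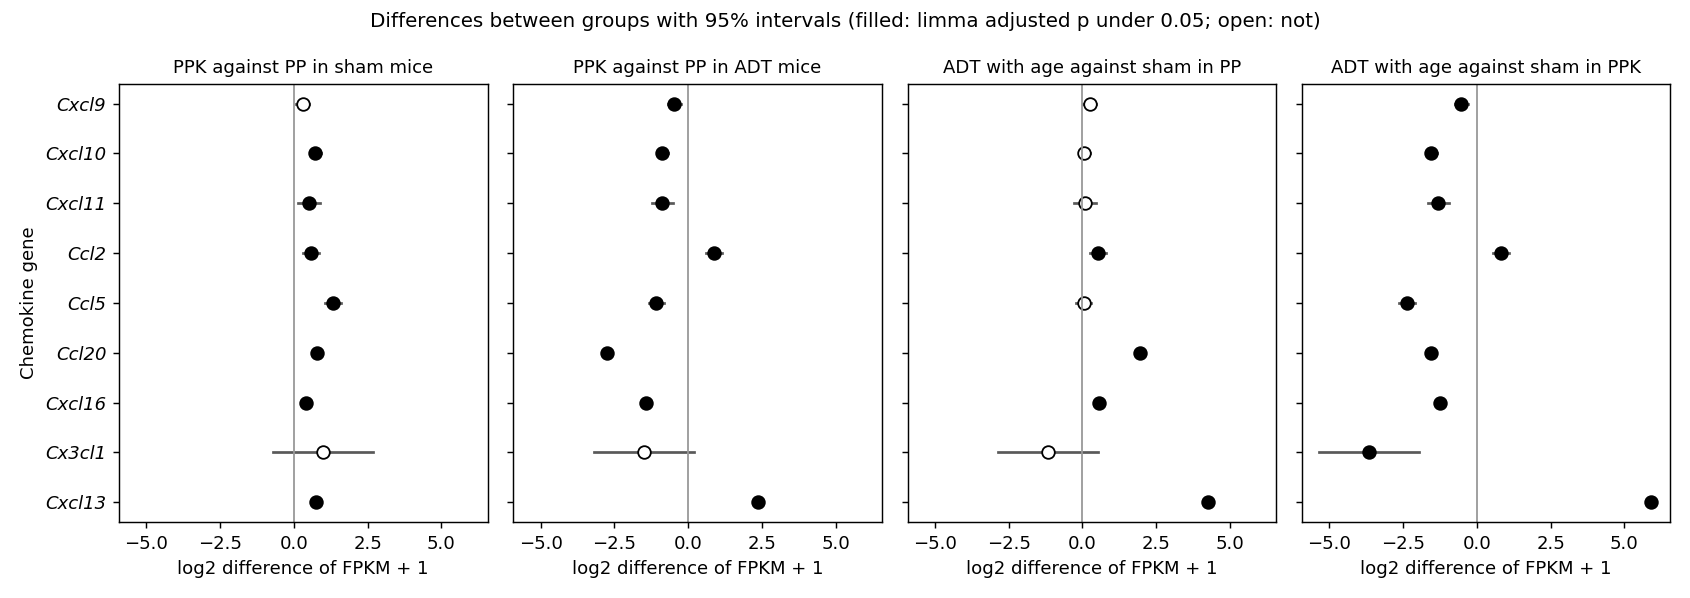
Log2 differences of the tested chemokine genes for each comparison, from limma on log2(FPKM + 1), with points for the estimate and bars for the 95% confidence interval. Most genes lie above 0 for PPK against PP in sham mice and below 0 in ADT mice, while Cxcl13 (0.75 and 2.38) and Ccl2 (0.59 and 0.88) lie above 0 in both.

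Cxcl13, the ligand of CXCR5, lies at chromosome 5, 95956951 to 95961068 on the plus strand (ENSMUSG00000023078, GENCODE M21 on GRCm38, 1 transcript). It was at 2.72 and 2.85 FPKM in PP sham, 5.49 and 5.20 in PPK sham, 72.7 and 69.8 in PP ADT and 368 and 381 in PPK ADT. All 4 groups were separate, in the order PP sham, PPK sham, PP ADT and PPK ADT. Group means were 25.6-fold higher with ADT than with sham in PP mice and 70.1-fold higher in PPK mice, and 5.26-fold higher in PPK than in PP mice after ADT. On the log2 scale PPK exceeded PP by 0.75 ± 0.045 (SE, n = 2 libraries a group, limma adjusted p = 7.47e-05) in sham mice and by 2.38 (adjusted p = 1.20e-07) in ADT mice. The genotype effect was larger in ADT than in sham mice by 1.63 ± 0.064 (SE, limma adjusted p = 3.47e-06). Its promoter window, shown above, held no match to the 4 motifs searched.

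The nearest annotated protein-coding genes, Cnot6l after it and E330014E10Rik before it, were looked at after the values of Cxcl13 had been seen. Cnot6l, a subunit of the CCR4-NOT deadenylase that begins 109265 bases after Cxcl13, ranged from 4.77 to 7.28 FPKM over the 8 libraries. E330014E10Rik was listed at 0 in all 8. The rise of Cxcl13 thus had no counterpart of like size in either neighbour.

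Within the summed FPKM of the 10 genes, the leading gene changed with treatment. That sum was 102.0 and 130.1 in PP sham, 175.7 and 180.5 in PPK sham, 216.3 and 218.5 in PP ADT and 422.7 and 434.2 in PPK ADT. Cxcl16 was the most abundant of the 10 in all 4 sham libraries and Cxcl13 in all 4 ADT libraries. Cxcl13 made up 2.66% and 2.19% of the sum in PP sham and 3.13% and 2.88% in PPK sham. Its share was 33.6% and 31.9% in PP ADT and 87.2% and 87.8% in PPK ADT. The higher sum in PPK ADT was therefore carried by Cxcl13, since Cxcl16 held 6.16% and 5.76% and Cxcl10 held 4.71% and 4.58% there.

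**Figure D3:**
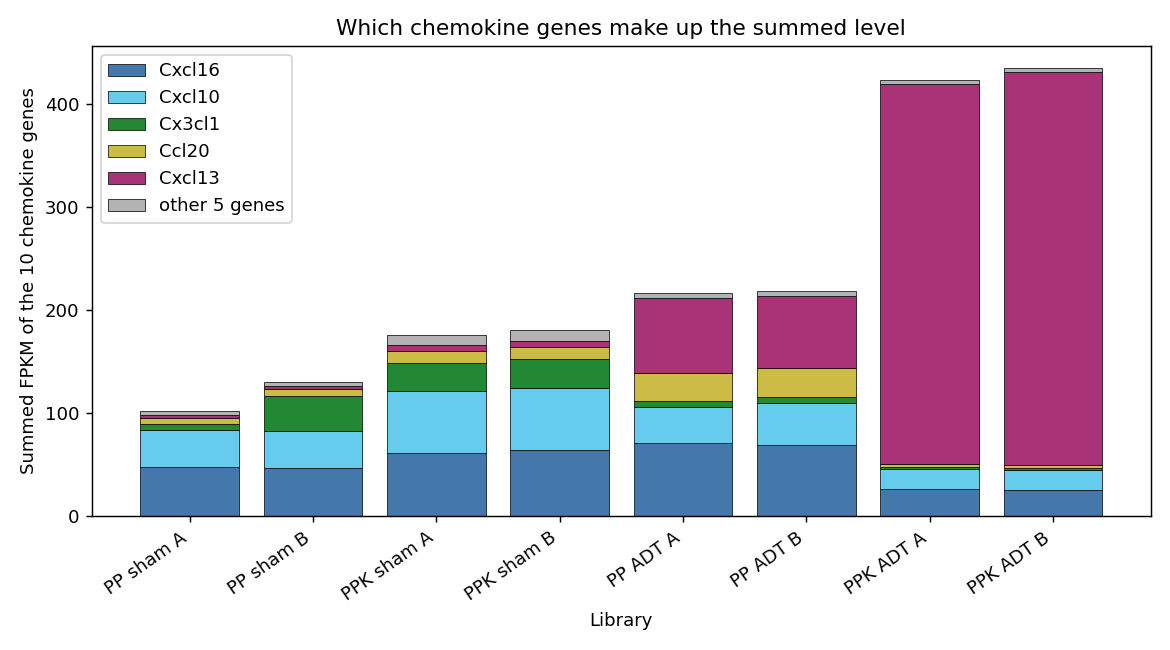
Summed FPKM of the 10 chemokine genes in each library, split by gene as stacked bars that start at 0. Cxcl16, Cxcl10 and, outside 1 library, Cx3cl1 fill most of the sham bars, while Cxcl13 fills 87.2% and 87.8% of the PPK ADT bars.

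The CXCR3 ligands lie side by side on chromosome 5, minus strand: Cxcl9 at 92321347 to 92328079 (ENSMUSG00000029417), Cxcl10 at 92346638 to 92348889 (ENSMUSG00000034855) and Cxcl11 at 92359544 to 92365485 (ENSMUSG00000060183), with 10655 bases between Cxcl10 and Cxcl11. Cxcl10 was the abundant one, at 36.5 and 35.5 FPKM in PP sham, 60.1 and 60.0 in PPK sham, 34.4 and 41.1 in PP ADT and 19.9 and 19.9 in PPK ADT. PPK sham stood above and PPK ADT below all other libraries, while the PP groups overlapped. Mean Cxcl10 was 1.67-fold higher in PPK sham than in PP sham (log2 difference 0.72 ± 0.077 SE, n = 2 libraries a group, limma adjusted p = 0.000856). In ADT mice it was lower in PPK (log2 difference -0.89, adjusted p = 9.59e-05), and it fell 3.02-fold from sham to ADT within PPK (adjusted p = 5.91e-06). Within PP the difference was 0.06 (95% interval -0.12 to 0.25, adjusted p = 0.553), and it was 0.19 (adjusted p = 0.0191) without PP ADT library A and -0.07 (adjusted p = 0.273) without library B. The genotype effect differed between treatments by -1.61 ± 0.11 (SE, adjusted p = 4.09e-05).

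Cxcl9 and Cxcl11 were low throughout. Cxcl9 was at 0.911 and 0.876 FPKM in PP sham, 1.33 and 1.32 in PPK sham, 1.21 and 1.28 in PP ADT and 0.517 and 0.730 in PPK ADT. Its libraries fell in the order PPK sham, PP ADT, PP sham and PPK ADT, with no overlap. PPK ADT was lower than PP ADT (log2 difference -0.47, limma adjusted p = 0.00476) and lower than PPK sham (-0.52, adjusted p = 0.00283). Neither step up passed, with 0.30 (95% interval 0.07 to 0.52, adjusted p = 0.0594) for PPK sham against PP sham and 0.24 (adjusted p = 0.0755) for PP ADT against PP sham. The first passed without PPK ADT library A or without B (adjusted p = 0.0422 each), which enter it only through the shared spread. The difference of genotype effects was -0.77 ± 0.13 (SE, adjusted p = 0.00315).

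Cxcl11, annotated in GENCODE M21 as a polymorphic pseudogene, that is, a gene intact in some strains and disrupted in the reference strain, was at 0.767 and 0.860 FPKM in PP sham and 1.85 and 1.34 in PPK sham. With ADT it was at 0.704 and 1.17 in PP mice and at 0.0898 and 0.00666 in PPK mice. Those last values stand for an estimated 2.7 and 0.2 fragments, against 20.9 and 37.3 in PP ADT, so no fold is given. PPK ADT lay below every other library. Against PPK ADT libraries, Cxcl11 was higher in PP ADT and in PPK sham (log2 differences of PPK ADT -0.88, limma adjusted p = 0.00255, and -1.30, adjusted p = 0.000358), and its genotype effects differed by -1.39 ± 0.21 (SE, adjusted p = 0.00193). Between the sham groups the difference of 0.51 passed narrowly (adjusted p = 0.0485), and the call was lost, with adjusted p from 0.0504 to 0.197, without any 1 of the PP sham, PPK sham or PPK ADT libraries. From sham to ADT in PP it was 0.08 (95% interval -0.28 to 0.45, adjusted p = 0.686), and -0.09 without PP ADT library B. Art3, which overlaps Cxcl10 and Cxcl11 on the plus strand, was at 0.204 to 1.03 FPKM. The authors' strand setting is unknown here, so reads of Cxcl11 and Art3 may not be fully told apart.

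Cxcl16 and Cx3cl1 are the chemokines made as membrane proteins, which adhere to cells bearing CXCR6 and CX3CR1 and can be shed by ADAM10 and ADAM17. Cxcl16 (ENSMUSG00000018920, chromosome 11, 70453983 to 70459984, minus strand) was at 47.3 and 47.0 FPKM in PP sham, 61.4 and 63.7 in PPK sham, 71.1 and 68.8 in PP ADT and 26.0 and 25.0 in PPK ADT. Its 4 groups did not overlap, with PP ADT highest and PPK ADT lowest. PPK sham exceeded PP sham by 0.40 ± 0.037 (SE, n = 2 libraries a group, limma adjusted p = 0.000459) on the log2 scale. PP ADT exceeded PP sham by 0.56 (adjusted p = 4.82e-05). In ADT mice mean Cxcl16 was 2.74-fold higher in PP than in PPK (log2 difference of PPK against PP -1.42, adjusted p = 3.92e-07), and within PPK it fell by 1.26 with ADT (adjusted p = 5.10e-07). The genotype effect turned from higher to lower between treatments, by -1.82 ± 0.052 (SE, adjusted p = 9.84e-07). Zmynd15, which overlaps Cxcl16 on the other strand, was at 0.727 to 2.69 FPKM.

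Cx3cl1 (ENSMUSG00000031778, chromosome 8, 94772009 to 94782427, plus strand) differed within 1 group. It was at 5.09 FPKM in PP sham A and 33.5 in PP sham B, at 26.6 and 29.1 in PPK sham, 5.75 and 5.23 in PP ADT and 1.22 and 1.33 in PPK ADT. The PP sham libraries differed 6.59-fold, and among 7092 genes with a mean of at least 5 FPKM only 18 (0.254%) differed at least 4-fold between these libraries. Comparisons of PP sham with PPK sham or PP ADT thus rest on which PP sham library is used. So does the size of the difference of genotype effects, but not its sign. PPK ADT was below PPK sham (log2 difference -3.66, limma adjusted p = 0.00388), with group means 21.8-fold apart. PPK sham against PP sham gave 0.99 ± 0.70 (SE, 95% interval -0.71 to 2.69, adjusted p = 0.351), and 2.24 (adjusted p = 0.00022) without PP sham B but -0.26 (adjusted p = 0.117) without PP sham A. PP ADT against PP sham gave -1.16 (adjusted p = 0.228), and 0.09 (adjusted p = 0.523) without PP sham B but -2.41 (adjusted p = 5.17e-05) without PP sham A.

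In ADT mice the PPK libraries of Cx3cl1 lay below the PP libraries. This difference of -1.51 did not pass with the spread of all groups (limma adjusted p = 0.109). It passed when PP sham A was left out (adjusted p = 3.96e-05), when PP sham B was left out (adjusted p = 4.77e-05) and when only the ADT groups were fitted (adjusted p = 0.000597). The difference of genotype effects was -2.50 ± 0.995 (SE, adjusted p = 0.0758), and it was -1.25 (adjusted p = 0.000733) without PP sham A and -3.75 (adjusted p = 2.16e-05) without PP sham B. What set PP sham A and B apart was not tested.

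Ccl20, the ligand of CCR6 on Th17 cells, B cells and immature dendritic cells, lies at chromosome 1, 83116766 to 83119167 on the plus strand (ENSMUSG00000026166). It was at 5.96 and 6.83 FPKM in PP sham, 11.8 and 11.4 in PPK sham, 27.4 and 28.1 in PP ADT and 3.41 and 3.22 in PPK ADT. The 4 groups were separate, with PP ADT at the top and PPK ADT at the bottom. Mean Ccl20 was 4.34-fold higher in PP ADT than in PP sham (log2 difference 1.96, limma adjusted p = 3.17e-06) and, after ADT, 8.38-fold higher in PP than in PPK (log2 difference of PPK against PP -2.74, adjusted p = 3.70e-07). Between the sham groups the order was the other way, with PPK higher by 0.77 ± 0.070 (SE, n = 2 libraries a group, adjusted p = 0.000434). Its difference of genotype effects was -3.51 ± 0.099 (SE, adjusted p = 9.49e-07), further from 0 than those of the other 8 genes with all libraries in. In PPK mice it fell by 1.55 with ADT (adjusted p = 3.82e-06).

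Ccl5, which attracts T cells and monocytes, lies at chromosome 11, 83525778 to 83530518 on the minus strand (ENSMUSG00000035042). It was at 2.19 and 2.05 FPKM in PP sham, 6.09 and 7.64 in PPK sham, 2.11 and 2.29 in PP ADT and 0.509 and 0.521 in PPK ADT. PPK sham was highest and PPK ADT lowest, and the PP groups overlapped. Group means were 3.24-fold higher in PPK sham than in PP sham (log2 difference 1.33 ± 0.11 SE, n = 2 libraries a group, limma adjusted p = 0.00028), and they fell 13.3-fold from sham to ADT within PPK (log2 difference -2.37, adjusted p = 4.05e-06). PPK ADT was below PP ADT (log2 difference -1.08, adjusted p = 0.000195), an estimated 5.1 and 5.3 fragments against 21.1 and 24.6. Within PP, ADT and sham differed by 0.04 (95% interval -0.23 to 0.30, adjusted p = 0.81), and by -0.002 without PP ADT library B. The genotype effects differed by -2.41 ± 0.15 (SE, adjusted p = 3.15e-05).

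Ccl2, which recruits monocytes through CCR2, lies at chromosome 11, 82035571 to 82037453 on the plus strand (ENSMUSG00000035385), and was low in all groups. It was at 0.259 and 0.115 FPKM in PP sham, 0.820 and 0.738 in PPK sham, 0.863 and 0.562 in PP ADT and 2.17 and 2.12 in PPK ADT. PPK ADT was highest and PP sham lowest, with PPK sham and PP ADT overlapping between them. Ccl2 passed the filter only through PPK ADT, so that part of its difference follows from the filter. The estimated fragments behind these values were 5.3 and 1.9 in PP sham and 33.2 and 32.7 in PPK ADT. On the log2 scale it was higher in PPK by 0.59 ± 0.12 (SE, n = 2 libraries a group, limma adjusted p = 0.0114) in sham and by 0.88 (adjusted p = 0.000725) in ADT mice. It rose with ADT by 0.53 (adjusted p = 0.0116) in PP and by 0.82 (adjusted p = 0.00095) in PPK. The sham call was lost without PP sham B (adjusted p = 0.0653) or PPK sham A (adjusted p = 0.0576), and the PP call without PP sham B (adjusted p = 0.0652) or PP ADT A (adjusted p = 0.0558). The difference of genotype effects was 0.30 (95% interval -0.10 to 0.70, adjusted p = 0.181), and it was -0.17 (adjusted p = 0.772) with a pseudocount of 0.1. Ccl7, a monocyte attractant that begins 8259 bases after Ccl2, had 0.157 and 0 FPKM in the PP sham libraries and 0.934 to 2.06 in the other 6.

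Cxcl12, the CXCR4 ligand that retains and homes leukocytes and is made mainly by stromal cells, lies at chromosome 6, 117168535 to 117181367 on the plus strand (ENSMUSG00000061353). It stayed under 1 FPKM everywhere and did not pass the filter. It was at 0.402 and 0.470 FPKM in PP sham, 0.169 and 0.169 in PPK sham, 0.103 and 0.0592 in PP ADT and 0.412 and 0.339 in PPK ADT. PP sham and PPK ADT overlapped, both above PPK sham, with PP ADT lowest.

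The receptors of these ligands were scarce in the gated cells. Summed over 11 chemokine receptor genes, FPKM was 1.12 to 2.88 per library. Cxcr3, the receptor of Cxcl9, Cxcl10 and Cxcl11, and Ccr6, the receptor of Ccl20, were listed at 0 in all 8 libraries. Cxcr5, the receptor of Cxcl13, averaged 0.00988 FPKM. Cxcr4 alone passed the filter and was at 1.68 and 2.41 FPKM in PP sham, 1.64 and 1.01 in PPK sham, 1.15 and 0.792 in PP ADT and 0.325 and 0.455 in PPK ADT. It fell with ADT by 0.62 in PP (limma adjusted p = 0.0336) and by 0.73 in PPK (adjusted p = 0.0128) on the log2 scale. Of 4 scavenging receptors, which bind chemokines without G protein signalling, only Ackr3 passed the filter. Ackr3, which binds CXCL12 and CXCL11, was at 0.363 and 0.510 FPKM in PP sham, 0.316 and 0.422 in PPK sham, 0.0287 and 0.121 in PP ADT and 3.17 and 2.80 in PPK ADT. It passed the filter only through PPK ADT, so that part of its difference follows from the filter. There it exceeded PP ADT by 1.89 (adjusted p = 1.17e-05) and PPK sham by 1.54 (adjusted p = 2.77e-05).

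Proteins that cut or hold chemokines differed by gene, with 5 of 6 tested. Dpp4, a peptidase that trims and inactivates CXCR3 ligands, was at 6.67 and 7.89 FPKM in PP sham, 1.73 and 1.31 in PPK sham, 2.23 and 2.17 in PP ADT and 0.591 and 0.456 in PPK ADT. It was thus lower in PPK than in PP libraries under both treatments (log2 differences -1.72, limma adjusted p = 0.000139, and -1.07, adjusted p = 0.000316). Adam17, a sheddase of both membrane chemokines, was higher in PPK than in PP mice after ADT by 0.42 (adjusted p = 0.0145). Adam10, the other sheddase, passed in no comparison. Its PP sham libraries lay apart, at 60.9 and 100.7 FPKM, and their spread enters every test of this gene. In ADT mice its PPK libraries, at 78.0 and 79.4 FPKM, lay below PP, at 97.6 and 96.8 (log2 difference -0.30, adjusted p = 0.245). The syndecans carry the heparan sulfate that binds chemokines at the cell surface. Sdc1 was at 132.7 and 132.6 FPKM in PP ADT and higher in PPK ADT, with 349.4 and 352.9 FPKM (log2 difference 1.40, adjusted p = 8.28e-08), while Sdc4 was at 621.4 and 609.8 and lower in PPK ADT, with 200.5 and 201.7 (log2 difference -1.61, adjusted p = 4.53e-08).

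Genes of the pathways that induce these chemokines, interferon receptors with their JAK, STAT and IRF factors and the interleukin-1, tumour necrosis factor and NF-kB genes, were all tested, 21 of 21. In PPK sham against PP sham 10 were higher and 1 lower, where 13.7% of all tested genes were higher and 14.9% lower. In ADT mice 3 were higher and 15 lower, where the shares were 32.5% and 27.1%. From sham to ADT 12 rose and 2 fell in PP (19.1% and 25.1% of all genes), while 3 rose and 13 fell in PPK (31.9% and 30.7%). In the difference of genotype effects 13 were below 0 (22.8% of all genes) and 0 above it (30.0% of all genes, and 0 of the list also at an unadjusted p under 0.05). Irf7, an interferon-induced factor, was higher in PPK than in PP by 0.92 in sham mice (limma adjusted p = 0.000182) and lower in ADT mice (log2 difference -2.45, adjusted p = 5.09e-07). Il1r1, the interleukin-1 receptor, was lower in PPK under both treatments (log2 differences -0.82 in sham, adjusted p = 0.000236, and -1.93 in ADT mice, adjusted p = 1.10e-06). Nfkb1, which encodes the p105 precursor of NF-kB, rose with ADT by 0.45 in PP (adjusted p = 0.000812) and by 0.465 in PPK (adjusted p = 0.000361). Its difference of genotype effects was 0.016 (adjusted p = 0.878).

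Of 27 other chemokine ligand genes 16 were tested. In PPK sham against PP sham 11 were higher and 1 lower, and in ADT mice 4 were higher and 10 lower. From sham to ADT 12 rose and 0 fell in PP (0 also at an unadjusted p under 0.05), and 6 rose and 7 fell in PPK. Over all tested genes 13.7% were higher and 14.9% lower between the sham groups and 32.5% and 27.1% between the ADT groups. From sham to ADT 19.1% rose and 25.1% fell in PP, and 31.9% and 30.7% in PPK, so the PPK counts of 6 and 7 lay near the background. In the difference of genotype effects 11 were below 0 and 3 above it, where 22.8% of all tested genes were below and 30.0% above. The median of these 16 genes was -1.7, beside -1.61 for the 9 tested members. Among the neutrophil attractants Cxcl2 was at 102.6 and 103.7 FPKM in PP sham, 217.6 and 215.1 in PPK sham, 238.0 and 238.2 in PP ADT and 24.2 and 24.2 in PPK ADT. That is the group order of Cxcl16 and Ccl20, with PP ADT highest and PPK ADT lowest. Ccl28, a mucosal ligand of CCR10 and CCR3, was at 0.897 and 1.45 FPKM in PP sham, 6.59 and 5.24 in PPK sham, 0.754 and 0.816 in PP ADT and 0.237 and 0.255 in PPK ADT. Like Ccl5 it was highest in PPK sham and lowest in PPK ADT.

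Markers of other cells that the gate could hold are given for the whole lists. T cell markers summed to 0.304 to 0.944 FPKM per library and dendritic cell markers to 0.335 to 0.662. Pan-leukocyte markers summed to 0.365 and 0.253 FPKM in PP sham and to 1.26 to 2.0 in the other 6 libraries, mostly from Laptm5, a lysosomal protein of blood cells. Their defining marker Ptprc, the antigen CD45, was at 0.0178 to 0.188 FPKM. B cell markers summed to 0.0140 and 0.0266 in PP sham, 0.0441 and 0.242 in PPK sham, 0.212 and 0.295 in PP ADT and 0.892 and 1.09 in PPK ADT, so that PPK ADT was highest and PP sham lowest, as for Cxcl13, with the middle groups overlapping. NK cell markers summed to 0 to 1.24 and endothelial markers to 0.524 to 4.27 FPKM, the latter highest in PPK sham. Macrophage and monocyte markers, led by Cd14 and Cd68, summed to 71.9 and 72.2 in PP sham, 138 and 137 in PPK sham, 137 and 149 in PP ADT and 61.7 and 61.9 in PPK ADT. Cd14, the lipopolysaccharide co-receptor, made up most of that sum outside PPK ADT, with 89.4 and 91.6 FPKM in PPK sham against 16.4 and 13.6 in PPK ADT. Within that list the defining macrophage genes Adgre1 and Csf1r stayed at 0.0361 to 0.585 and 0.101 to 0.605 FPKM.

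Fibroblast and smooth muscle marker sums, like Cxcl13, were higher in PPK ADT than in PPK sham. Mean Cxcl13 was 70.1-fold higher there, a far larger step than that of either sum. Fibroblast markers summed to 5.60 and 6.0 FPKM in PP sham, 18.2 and 17.7 in PPK sham, 4.66 and 4.59 in PP ADT and 29.5 and 30.5 in PPK ADT. Smooth muscle markers summed to 2.07 and 2.09, 5.94 and 5.59, 2.31 and 1.77, and 11.9 and 11.8 in the same order. Both lists were highest in PPK ADT, where Cxcl13, Ccl2 and Ackr3 were highest too. In PP ADT the fibroblast sum was below that of PP sham and the smooth muscle sums overlapped, while mean Cxcl13 was 25.6-fold higher than in PP sham. The part of these cells in the results was not tested.

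**Figure D4:**
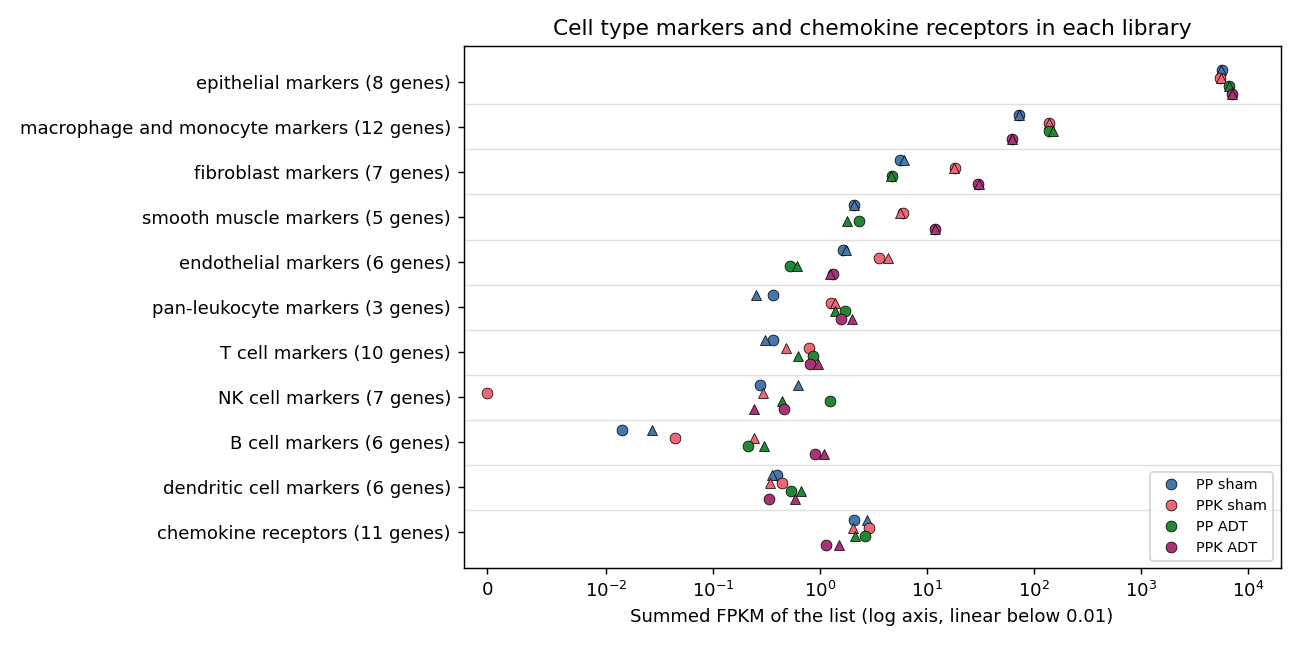
Summed FPKM of the marker lists in each library on a log axis that is linear near 0, with a circle for library A and a triangle for library B of each group. Fibroblast and smooth muscle sums are highest in PPK ADT, at 29.5 and 30.5 and at 11.9 and 11.8, and T cell sums stay between 0.304 and 0.944 FPKM.

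The genes most like each member over the 8 libraries were taken by Pearson's r of log2(FPKM + 1) among 6565 genes with a mean of at least 5 FPKM, after the members, predicted gene models, Rik clones and antigen receptor genes were set aside. All points come from the same 8 libraries, so r is a description with no test. Cxcl13 was closest to Fmo6 (r = 0.999), Ndrg1 (r = 0.999) and Abl2 (r = 0.998). Among the closest to Cxcl16 were Otud7b (r = 0.998) and the complement gene C2 (r = 0.998). Both thus followed many genes nearly perfectly, as values that fall into 4 tight groups allow. Cxcl10 was closest to the kinase gene Map3k8 (r = 0.997), Rnf186 (r = 0.993) and Hgfac (r = 0.992). Ccl20 was closest to Klf7 (r = 0.998), Sbno2 (r = 0.997) and Wdr1 (r = 0.996). Cx3cl1, with its split PP sham pair, reached at most 0.961, with Cbr3.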

How the data were processed

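RNA was extracted with Trizol from prostate epithelial cells and made into strand-specific TruSeq libraries, per the labels' protocols. The authors deposited 1 table of FPKM values per library, with 55335 Ensembl identifiers. FastQC 0.11.2 and the build mm10 are named in the submitters' processing notes; the aligner, quantifier, annotation and strand setting: not given in the sources used here. Symbols were matched for 55154 identifiers and places taken from GENCODE M21 on GRCm38. Values were FPKM, not counts, so limma 3.58.1 (R 4.3.3) was run on log2(FPKM + 1), with 4 group means and a mean-variance trend, on genes at 1 FPKM or more in at least 2 of the 8 libraries. p-values were adjusted over all 14000 genes. The fit was also run on simulated data with independent normal noise. Those data held no outlying library such as that of Cx3cl1 in PP sham, and no result here rests on that run.

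Depth was estimated from single-exon genes with 1 transcript over 300 bases. At the depth chosen, values of 1 to 10 fragments fell within 0.1 of whole numbers in 31.2% to 35.6% of cases, against 20% if spread evenly. The depth was chosen from these same values, so the excess is no independent check of it. Estimated fragments are therefore approximate, and the precision of low genes is set by them. Other tables used Python 3.11.15 and pandas 2.3.3. The chemokine genes, the other lists and the tests were chosen with earlier results of these data known. Named genes were all 10 members, up to 4 genes per other list and comparison with the smallest adjusted p (or the 2 most abundant where none passed), the 2 most abundant markers of a list with its defining markers, and the 3 genes most like each member of at least 5 FPKM; only some of these are named, and some genes the rule picked are not reported here. Ccl7 and the other neighbouring genes were chosen after their values were seen. Libraries A of the groups did not deviate together (correlations -0.008 to 0.057), and the letters were therefore not taken as pairing them. Alternatives were another pseudocount, other filters, scaling, quantile normalization, no trend, a replicate block, only the groups compared and each library left out. Organoid profiles are not analysed here.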

Additional observations from a re-analysis of the deposited data

Results flagged for a closer look

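For 7 of the 9 tested chemokine genes the PPK against PP difference itself differed between ADT and sham mice, by limma on log2(FPKM + 1) with adjusted p below 0.05, and is given here as log2 difference in ADT less that in sham. The difference was -3.508 for Ccl20, -2.406 for Ccl5, -1.82 for Cxcl16, -1.607 for Cxcl10, -1.386 for Cxcl11 and -0.765 for Cxcl9, each with the PPK libraries above PP in sham mice and below PP in ADT mice. For Cxcl13 it was 1.633, with the PPK libraries above PP in both. The sham difference of Cxcl9 did not pass (limma adjusted p = 0.0594). Cxcl9 and Cxcl11 passed the filter only through groups other than PPK ADT. ADT mice were also older than sham mice, so treatment and age cannot be told apart in these values.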

How the results depend on the processing

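Over the 45 pairs of a tested gene and a comparison, 691 values were recomputed: 656 kept direction and side of the threshold, 15 lost a call, 14 gained one and 6 turned direction. With a mean of at least 5 FPKM required, 5 members were tested and 4 (sham), 4 (ADT), 5 (PPK, ADT against sham) and 4 (difference of genotype effects) passed; the counts are lower because fewer genes were tested. Each library left out in turn gave 5 to 7, 8 to 9, 3 to 5, 9 and 7 to 8 members past the threshold, in the order genotype in sham, genotype in ADT, treatment in PP, treatment in PPK, and difference of genotype effects. The 6 values that turned were for results that did not pass. Leaving out 1 library gave -0.065 to 0.188 for Cxcl10, -0.089 to 0.258 for Cxcl11, -0.002 to 0.076 for Ccl5 and -2.413 to 0.09 for Cx3cl1 from sham to ADT in PP, and -0.262 to 2.241 for Cx3cl1 between sham groups. A pseudocount of 0.1 gave -0.169 for the Ccl2 difference of genotype effects; the cause was not tested. With a replicate block of the letters A and B, 6, 8, 4, 9 and 7 members passed, and the Cxcl11 sham call was lost (adjusted p = 0.0776). That call was also lost with a pseudocount of 0.1 (0.136), with no filter (0.123), with quantile normalization (0.0526) and with only the groups compared (0.0636). Cxcl9 from sham to ADT in PP passed under median-of-ratios scaling (0.0477), quantile normalization (0.0267) and no trend (0.0382). With 2 libraries a group, and an estimated 0.2 to 5.3 fragments behind the lowest values of Cxcl11, Ccl2 and Ccl5, depth also limits what is said of these genes. With no filter all 10 members were tested. Then 6 were higher and 1, Cxcl12, lower in PPK sham against PP sham. From sham to ADT in PP 4 rose and 1, again Cxcl12, fell. The fit of only the groups compared was not run for the difference of genotype effects, which needs all 4.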

Other observations

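Ppbp, which encodes a neutrophil attractant released by platelets, lies among the CXC chemokine genes of chromosome 5. It was highest in PPK ADT, as Cxcl13 was, and was picked after its values were seen. It was at 1.41 and 0.279 FPKM in PP sham, 0.819 and 0.743 in PPK sham, 5.12 and 6.60 in PP ADT and 90.7 and 93.3 in PPK ADT. PPK ADT was highest and PP ADT stood above both sham groups, which overlapped. In limma on log2(FPKM + 1) PPK ADT exceeded PP ADT by 3.77 (adjusted p = 4.01e-05) and PPK sham by 5.71 (adjusted p = 5.03e-06).

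Cxcl12, kept out of the tests by the filter, was fitted with no filter on low values. It was then lower in PPK than in PP sham mice (log2 difference -0.30, limma adjusted p = 0.0212) and higher in PPK than in PP ADT mice by 0.35 (adjusted p = 0.0048) on the log2(FPKM + 1) scale. From sham to ADT the log2 difference was -0.41 in PP (adjusted p = 0.0041) and 0.23 in PPK (adjusted p = 0.0207). The difference of genotype effects was 0.64 (adjusted p = 0.0021). These values rest on levels under 0.5 FPKM.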
